A study of Mus musculus with 9 samples.

Results

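The DNA methyltransferases Dnmt1, Dnmt3a and Dnmt3b, their partners Dnmt3l and Uhrf1, and the TET dioxygenases Tet1, Tet2 and Tet3 were followed in mouse fetal ovaries before and after grafting into male hosts. The members were all the probe sets, the groups of array probes that report a transcript together, annotated to one of these genes alone, which gave 20 probe sets for 8 genes, of 45101 probe sets and 18194 genes on the array. The value reported is that of the gene's brightest probe set by its mean over the 9 arrays, and the other probe sets serve as a check.

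The grafts were XX ovaries taken at 13 dpc (days post-coitum) from embryos whose mothers had received busulfan, an alkylating drug that depletes germ cells. They were placed under the kidney capsule of adult XY nude (BALB/c nu/nu) males, which keep macrophages and B cells but lack a thymus, and recovered after 4, 7, 10, 15 or 20 days, and ungrafted ovaries of the same age and treatment are day 0. The labels name the ICR strain for the ovaries, while the methods of the study name C57BL/6 and ICR mice. Each graft array held RNA of about 10 pooled grafts, and all RNA was hybridised to an Affymetrix GeneChip for the mouse genome. Days 0, 10 and 20 had duplicate arrays, which the labels call biological replicates, and days 4, 7 and 15 had a single array each. No array came from grafts in female hosts.

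In mammals, DNMT1 copies methylation onto the new strand after replication, guided to hemimethylated CpG sites by UHRF1. DNMT3A and DNMT3B place methylation anew, helped in germ cells by DNMT3L, which has no catalytic activity of its own. The TET enzymes oxidise 5-methylcytosine, from which cytosine can be restored by base excision or by dilution at replication. Fetal germ cells are known for erasing most of their methylation, and growing oocytes for laying it down again with DNMT3A and DNMT3L, while a store of DNMT1 accumulates in the oocyte.

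Values are RMA log2 intensities, so a difference of 1 is a change of 2-fold, and 25% of all values lay under 4.82. A difference was called when limma's adjusted p, over all probe sets, was under 0.05 and the fold was over 2. Intensities of different probe sets depend on the probes as well as on the RNA, so levels are compared within a gene only. In bulk tissue, fewer cells of a type and less RNA per cell cannot be told apart.

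Several facts of the arrays touch the results. Day 20 replicate 1 carried kidney transcripts, with a median change of 5.93 on the log2 scale over 10 kidney markers, against −0.04 in day 20 replicate 2, and 7 of the 8 genes were lower on it than on replicate 2. The duplicates of day 20 differed most (SD of the difference over all probe sets 0.697), against 0.343 on day 10 and 0.447 on day 0. Foxl2, a granulosa cell factor, lay between 11.71 and 12.98 in the grafts, against 11.44 and 11.58 on day 0. The median of the 8 gonadal soma markers, Foxl2 among them, went the other way. It lay between 10.39 and 12.15 in the grafts, against 12.35 and 12.30 on day 0. Although the ovaries had been depleted of germ cells, the oocyte genes Zp3 and Gdf9 each reached 12.74 at the highest, in grafts of day 10 or later.

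Only Dnmt3b passed the test. It fell on day 10 and on day 20, while the other 7 genes passed in no comparison with day 0. Dnmt1 had the widest range over the 9 arrays, 2.36, and together with Uhrf1 (1.92) it was low on days 4 and 7 and higher on the later days. Tet1 and Tet2 stayed within a range of 0.90 and 0.65 over the 9 arrays, against a median range of 0.786 over all probe sets.

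**Figure D1:**
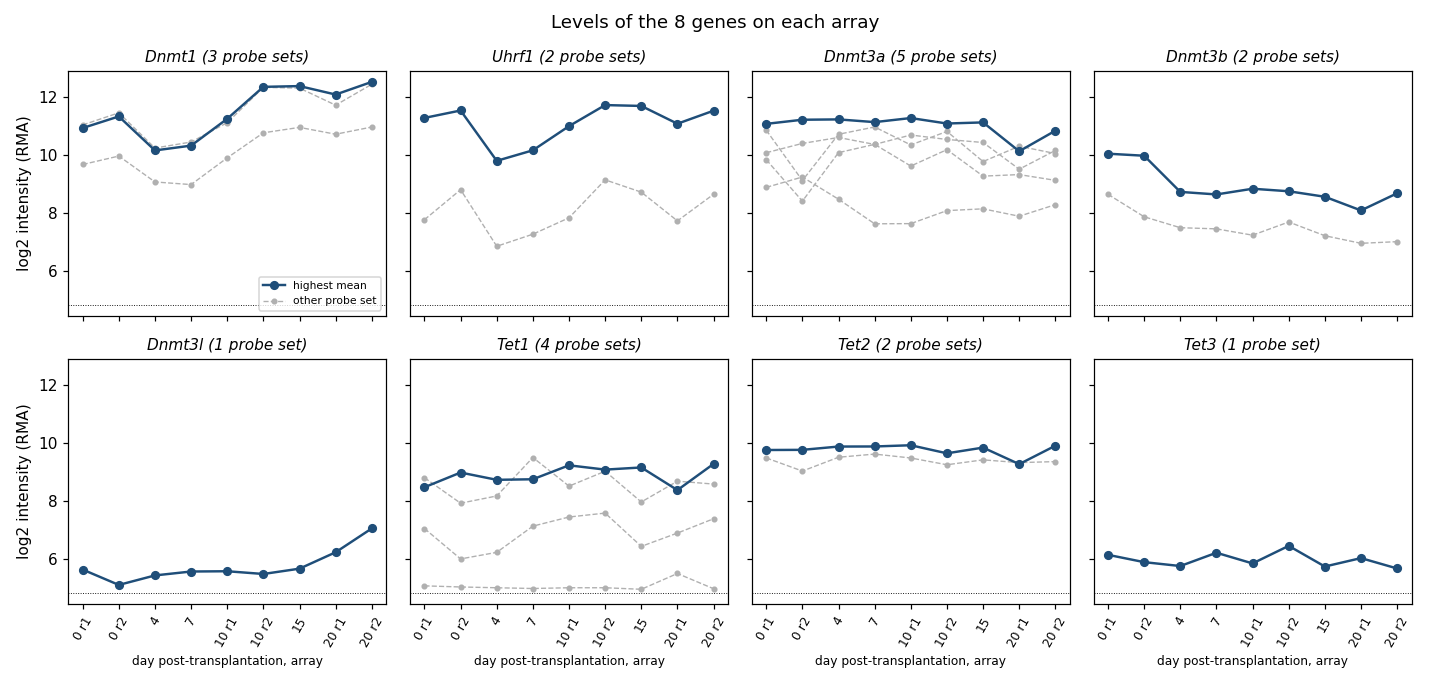
RMA log2 intensity of every probe set of the 8 genes on each of the 9 arrays, in order of days 0 to 20 post-transplantation (r1 and r2 are replicate arrays). Solid blue lines are the probe set with the highest mean, dashed grey lines the others, and the dotted line marks 4.82, below which 25% of all values lay. Dnmt3b is at 9.96 or above on both day 0 arrays and at 8.82 or below on all 7 graft arrays.

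The count of calls was read against the whole array. On day 10, 1 of the 8 genes was lower, where 1.33% of all probe sets were lower and 2.87% higher. On day 20, 1 of the 8 was lower, where 3.10% were lower and 4.52% higher. No gene of the 8 was called on day 4, where 0.929% of all probe sets were called in either direction, on day 7 (1.67%) or on day 15 (2.80%), days with 1 array each, whose spread was taken from the duplicated days. At an unadjusted p under 0.05 in limma, 2 of the 8 passed on each of these days, Uhrf1 and Dnmt3b on days 4 and 7, and Dnmt1 and Dnmt3b on day 15. Over all probe sets, 9.99% passed at that threshold on day 4, 13.4% on day 7 and 17.4% on day 15.

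**Figure D2:**
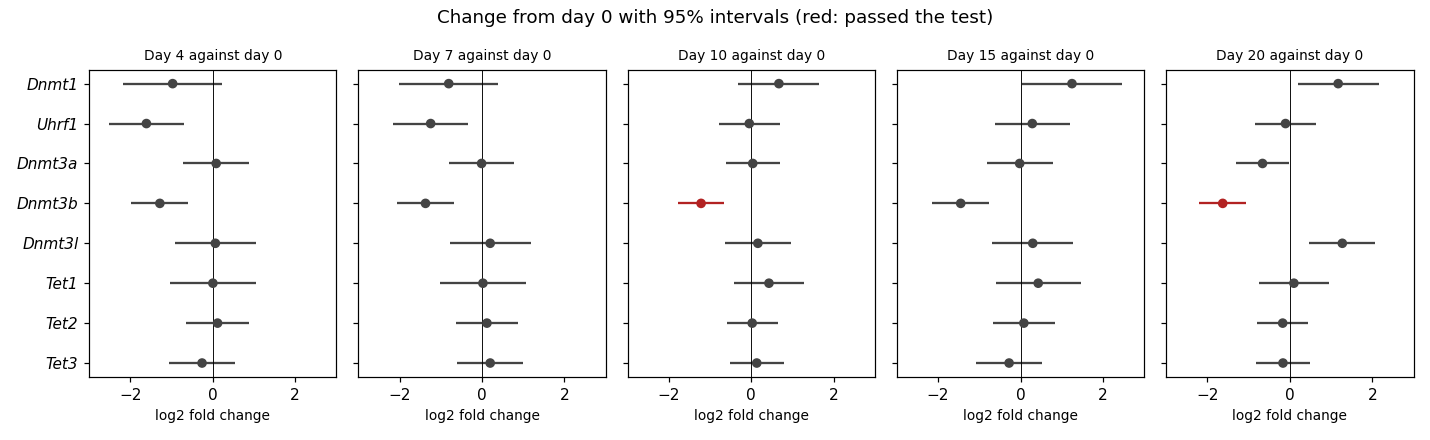
log2 fold change of each gene on the 5 graft days against day 0 (points) with the 95% interval from limma (lines), using the probe set with the highest mean. Red marks the values that passed the test, which are Dnmt3b on day 10 (−1.22) and day 20 (−1.63).

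Dnmt3b (probe set 1449052_a_at), a de novo methyltransferase that acts mainly in the early embryo, read 10.03 and 9.96 on day 0, 8.71 on day 4, 8.63 on day 7, 8.82 and 8.74 on day 10, 8.55 on day 15, and 8.07 and 8.67 on day 20. All 7 graft arrays were therefore below both day 0 arrays, and the grafts of days 4 to 15 lay between 8.55 and 8.82. On single graft days, between 35.3% and 47.4% of all probe sets lay below both day 0 arrays. The share below them on all 7 graft arrays was not counted. Dnmt3b fell on day 10 by 1.22 (SE 0.23, limma adjusted p = 0.0467), a fold of 2.33. It fell on day 20 by 1.63 (SE 0.23, limma adjusted p = 0.0149), a fold of 3.09. Already on day 4 it was 1.28 below day 0 (SE 0.28), at a limma adjusted p of 0.155, and days 7 and 15 gave −1.37 and −1.45 at adjusted p values of 0.0973 and 0.0640 in limma.

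The day 20 call held without the array that carried kidney transcripts, at −1.33 on day 20 (limma adjusted p = 0.0194), and was −1.92 (limma adjusted p = 0.00501) without the other day 20 array. The day 10 call was lost without any one of the arrays of day 10 or day 0, with limma adjusted p between 0.177 and 0.317, and the day 20 call was lost without either array of day 0 (0.0899 and 0.0883 in limma) or day 10 (0.0571 each). Both calls were lost with values under 4.82 raised to it (limma adjusted p = 0.126 on day 10 and 0.0664 on day 20), that of day 10 with the replicate number as a block (0.0788 in limma), and that of day 20 with only the arrays of days 0 and 20 in the fit (0.0571 in limma). The second probe set of Dnmt3b (1418351_a_at) was also lower on every graft array, at 8.63 and 7.86 on day 0, 7.48 on day 4, 7.44 on day 7, 7.22 and 7.68 on day 10, 7.20 on day 15, and 6.94 and 7.00 on day 20. Its changes of −0.79 on day 10 and −1.27 on day 20 did not pass (limma adjusted p = 0.219 and 0.0574). Day 20 was 0.41 below day 10 by the main probe set (limma adjusted p = 0.977), within the spread between replicates, so the order of the graft days is not resolved.

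The medians of other marker lists were also lower on all 7 graft arrays than on day 0. The median of 7 erythroid markers lay between 5.08 and 6.26 in the grafts, against 9.39 and 8.08 on day 0, and that of 8 gonadal soma markers between 10.39 and 12.15, against 12.35 and 12.30 on day 0. On day 20, 5 of the 7 erythroid and 4 of the 8 gonadal soma markers were lower and none higher, and without the kidney array 4 of the 7 and 4 of the 8 were lower and Foxl2 alone was higher. Their part in the level of Dnmt3b was not tested.

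Dnmt1 (1435122_x_at), the maintenance methyltransferase, read 10.92 and 11.32 on day 0, 10.14 on day 4, 10.31 on day 7, 11.24 and 12.34 on day 10, 12.37 on day 15, and 12.07 and 12.51 on day 20. The arrays of days 4 and 7 lay below both day 0 arrays, and those of days 15 and 20 above both. The duplicates of day 10 were far apart, with replicate 1 inside the range of day 0. Against day 0, the change was −0.97 on day 4, −0.81 on day 7, 0.67 on day 10, 1.25 on day 15 and 1.17 (SE 0.40) on day 20, and none passed (limma adjusted p = 0.635, 0.565, 0.403, 0.272 and 0.131). Both other probe sets of Dnmt1 had the same sign on each of these days.

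The grafts of day 20 were also compared with those of days 4 and 7, a comparison added after the values were seen. Dnmt1 was 2.06 higher on day 20 (SE 0.40, 95% interval 1.08 to 3.05, limma adjusted p = 0.119), and 1.56 higher on day 10 than on days 4 and 7 (SE 0.40, limma adjusted p = 0.497). Neither passed. For day 20 against days 4 and 7, 0.361% of all probe sets were called in either direction, and none of the 8 genes was called. For day 10 against days 4 and 7, 0% of all probe sets were called, although 3027 of them, 6.71%, had an unadjusted p under 0.05 in limma, Dnmt1 and Uhrf1 among them.

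Uhrf1 (1415810_at), which brings DNMT1 to replicated DNA, read 11.27 and 11.52 on day 0, 9.79 on day 4, 10.15 on day 7, 10.98 and 11.71 on day 10, 11.68 on day 15, and 11.07 and 11.52 on day 20. The arrays of days 4 and 7 were the lowest, day 15 lay just above the day 0 values, and the duplicates of days 10 and 20 were not both on one side of them. The change was −1.61 on day 4 (SE 0.37, limma adjusted p = 0.174) and −1.25 on day 7 (SE 0.37, limma adjusted p = 0.224), against −0.05 on day 10, 0.28 on day 15 and −0.10 on day 20. Day 10 was 1.38 above days 4 and 7 (SE 0.30, limma adjusted p = 0.425), and day 20 was 1.32 above them (SE 0.30, limma adjusted p = 0.162). The second probe set (1415811_at) read 6.84 on day 4 and 7.25 on day 7, below the 7.75 and 8.79 of day 0, and between 7.71 and 9.13 on the later days.

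Other gene groups were read on the same arrays. Over 20 genes of DNA replication and the cell cycle, the median change from day 0 was −1.06 on day 4, −1.02 on day 7, −0.66 and −0.53 on day 10, −0.63 on day 15, and −1.29 and −0.78 on day 20. This median thus stayed below day 0 on every graft array, with at most 3 of the 20 genes above their day 0 mean on any of them. Dnmt1 stood above both day 0 arrays on days 15 and 20. The part of dividing cells in the level of Dnmt1 was not tested. Over 11 germ cell and oocyte genes, the median level was 6.68 and 7.11 on day 0, 5.14 on day 4, 7.48 on day 7, 8.31 and 9.94 on day 10, 9.79 on day 15, and 9.48 and 10.11 on day 20.

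Of the 11 germ cell and oocyte genes, 5 rose on day 10 and on day 20 and none fell, where 2.87% and 4.52% of all probe sets were higher on these days. Without the kidney array, 3 of the 11 were higher on day 10 and 5 on day 20. Their intensities, summed over the list on the linear scale, lay between 6618 and 25508 on days 10 to 20, against 1933 and 5713 on day 0, where at least 2 of the 11 were under 4.82. Zp3, a coat protein of the oocyte, read 4.66 and 4.96 on day 0, 5.03 on day 4, 8.49 on day 7, 10.84 and 12.74 on day 10, 12.45 on day 15, and 11.63 and 12.38 on day 20. Zp3 was lower on the first array of day 10 than on the second, as were 3 of the 8 genes, Dnmt1, Uhrf1 and Tet3. Miox, a gene of the kidney list, had the same order, at 7.96 and 10.19. It was also high on day 15 (10.00) and in day 20 replicate 2 (9.86), and the study lists it among Sertoli cell-specific genes that rose. The median of the 10 kidney markers was 5.89 and 6.30 on day 10, against 6.01 and 5.87 on day 0. The part of germ cells and oocytes in the level of Dnmt1 was not tested.

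**Figure D3:**
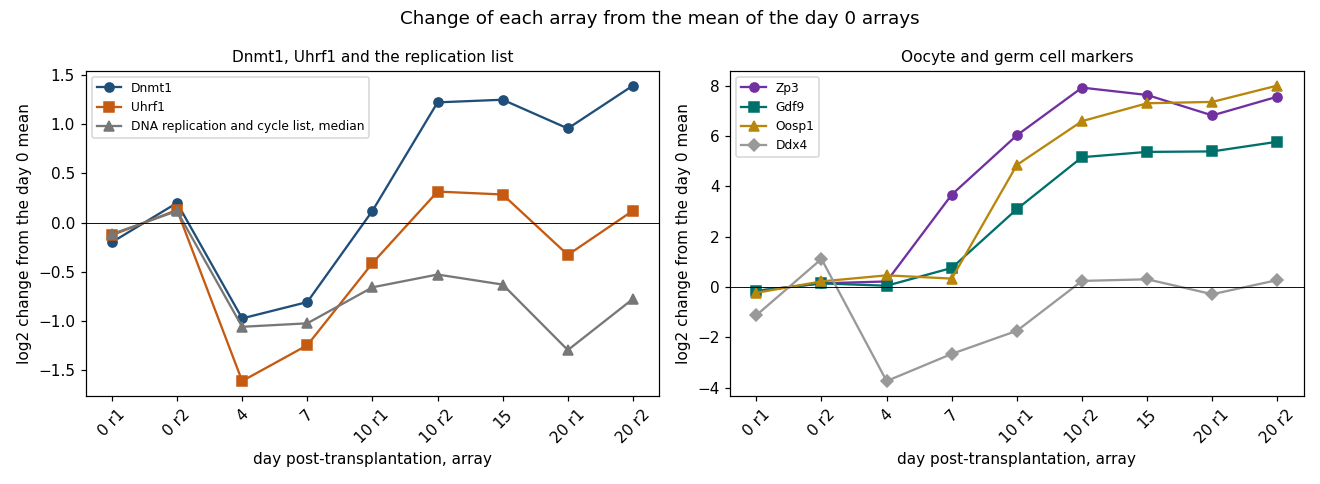
log2 change of each array from the mean of the day 0 arrays, for Dnmt1, Uhrf1 and the median of 20 replication and cell cycle genes (left) and for the oocyte genes Zp3, Gdf9 and Oosp1 and the germ cell gene Ddx4 (right). The axes differ in scale. Dnmt1 runs between −0.97 on day 4 and 1.39 on day 20 r2, while the replication median stays at −0.53 or below on all 7 graft arrays.

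The starts of Dnmt1 and Uhrf1 are shown because both genes were low on days 4 and 7 and higher afterwards. RefSeq (GRCm38.p6) gave 15 windows of 300 bases, 250 before and 50 after an annotated start, for all 8 genes. They were searched on both strands for the letters TTTCCCGC, TTTGGCGC and TTTCGCGC, forms of the site of E2F factors, which drive genes of DNA replication. The search was chosen after the values were seen. At least 1 of the letter strings was found in 606 of 32851 windows of all genes (1.84%), and among the 15 in 1 window each of Dnmt1 and Uhrf1. The strings hold CpG themselves, and both of these windows held 33 CpG, more than 91.4% of all windows did. The share among windows equally rich in CpG was not counted. The 3 matches follow with up to 11 bases on either side, 5′ to 3′ on the strand of the gene, with the match in capitals; bases are counted from the start of that window's transcript.
Dnmt1 at chr9:20952824-20952853 (minus strand, match from −219 to −212, TTTCGCGC on the opposite strand): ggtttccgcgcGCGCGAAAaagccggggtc
Dnmt1 at chr9:20952574-20952601 (minus strand, match from 34 to 41): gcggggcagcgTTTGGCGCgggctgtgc
Uhrf1 at chr17:56304117-56304146 (plus strand, match from −185 to −178): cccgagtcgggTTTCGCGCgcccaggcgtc
A match is a description of the letters, and no binding was measured.

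Dnmt1 has 3 annotated starts in RefSeq. The start with the matches lies 356 bases downstream of the middle one, so that both matches lie downstream of the middle start too, and the middle one lies 6909 bases downstream of the far one. Mouse oocytes are known to start Dnmt1 at an exon upstream of the somatic one, and RefSeq's table does not say which start that is. The 250 bases before the middle and the far start are given because they differ in the number of CpG, the letters the enzymes act on. They hold no match and so no capitals.
Dnmt1 middle start, chr9:20952980-20953229, minus strand, 7 CpG: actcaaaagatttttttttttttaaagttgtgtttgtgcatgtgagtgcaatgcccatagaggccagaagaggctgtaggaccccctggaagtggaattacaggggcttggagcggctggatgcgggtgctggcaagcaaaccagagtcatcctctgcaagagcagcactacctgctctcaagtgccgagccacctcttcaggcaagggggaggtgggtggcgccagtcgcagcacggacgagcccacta
Dnmt1 far start, chr9:20959889-20960138, minus strand, 2 CpG: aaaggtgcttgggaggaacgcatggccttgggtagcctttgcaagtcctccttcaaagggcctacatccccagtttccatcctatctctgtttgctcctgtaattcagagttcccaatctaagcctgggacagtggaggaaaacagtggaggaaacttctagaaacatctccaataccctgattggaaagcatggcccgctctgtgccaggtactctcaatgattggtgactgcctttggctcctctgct
In the full windows of 300 bases, the start with the matches held 33 CpG, the middle start 12 and the far start 2. The median over all windows of that length was 7. Probe sets of this array lie toward the 3′ end of transcripts, so the levels above do not separate the starts.

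Dnmt3a was read by 5 probe sets, which did not move alike. The brightest (1423063_at) read 11.06 and 11.20 on day 0, 11.22 on day 4, 11.12 on day 7, 11.26 and 11.07 on day 10, 11.11 on day 15, and 10.12 and 10.82 on day 20. It was therefore flat to day 15, with both day 20 arrays below every other array. The change on day 20 was −0.66 against day 0 (SE 0.26, limma adjusted p = 0.181) and −0.70 against day 10 (SE 0.26, limma adjusted p = 0.977). In that last comparison none of the 8 genes passed, and 0.00222% of all probe sets were called. Dnmt3a and Dnmt3l had an unadjusted p under 0.05 in limma there, as did 5% of all probe sets.

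The lower of the day 20 arrays was replicate 1, the array with kidney transcripts. Without it the day 20 change of Dnmt3a was −0.31, and without replicate 2 it was −1.02 and passed the test (limma adjusted p = 0.025). Of the other 4 probe sets, 1460324_at gave −0.41 on day 20, while 1423066_at and 1423065_at gave 0.19 and 0.10. These last were also the least even within day 0, at 10.84 and 9.11 for 1423066_at and 9.83 and 8.39 for 1423065_at. The dimmest, 1423064_at, was below both day 0 arrays on all graft arrays, at 8.87 and 9.23 on day 0, 8.46 on day 4, 7.61 on day 7, 7.62 and 8.07 on day 10, 8.13 on day 15, and 7.87 and 8.27 on day 20. Its changes were −1.21 on day 10 (limma adjusted p = 0.0613) and −0.98 on day 20 (limma adjusted p = 0.0704). Which part of the transcript each probe set reads was not analysed here, and no direction is given for Dnmt3a as a gene.

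Dnmt3l (1425035_s_at), the cofactor of methylation in oocytes, was dim, at 5.63 and 5.10 on day 0, 5.42 on day 4, 5.56 on day 7, 5.57 and 5.47 on day 10, 5.66 on day 15, and 6.22 and 7.05 on day 20. Both day 20 arrays lay above the 7 others. The change on day 20 was 1.27 (SE 0.32, fold 2.42, limma adjusted p = 0.0684), which missed the threshold, and without the array with kidney transcripts it was 1.68 and passed (limma adjusted p = 0.0378). Without day 20 replicate 2 it was 0.86 and did not pass (limma adjusted p = 0.0931), nor did it without either array of day 0 or day 10 (limma adjusted p between 0.131 and 0.279). On day 10, when the oocyte genes above were high, Dnmt3l read 5.57 and 5.47, inside the range of day 0. The part of oocytes in the level of Dnmt3l was not tested.

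The TET genes showed no call in any comparison. Tet1 (1455425_at), most known from pluripotent and germ cells, read 8.47 and 8.98 on day 0, 8.72 on day 4, 8.74 on day 7, 9.22 and 9.08 on day 10, 9.15 on day 15, and 8.37 and 9.27 on day 20. The grafts of day 10 and day 15 lay above both day 0 arrays, and the duplicates of day 20 lay on opposite sides of them. The largest change from day 0 was 0.43, on days 10 and 15 (SE 0.34 and 0.42, limma adjusted p = 0.533 and 0.696). Of its other probe sets, 1429448_s_at and 1419896_at spread over 1.58 each across the 9 arrays, and 1419897_at stayed between 4.95 and 5.49, near the 4.82 under which 25% of all values lay.

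Tet2 (1455300_at), a TET enzyme widely expressed in adult tissue, read 9.75 and 9.76 on day 0, 9.87 on day 4, 9.87 on day 7, 9.92 and 9.64 on day 10, 9.84 on day 15, and 9.27 and 9.90 on day 20. Apart from the array with kidney transcripts, all its values lay between 9.64 and 9.92. The 95% interval of the change ran between −0.79 and 0.45 on day 20 and between −0.60 and 0.64 on day 10, so a change of 2-fold lies outside both. Its second probe set (1438781_at) lay between 9.03 and 9.61. Tet3 (1439324_at), the TET enzyme of the oocyte and zygote, was dim, at 6.14 and 5.88 on day 0, 5.75 on day 4, 6.21 on day 7, 5.84 and 6.44 on day 10, 5.73 on day 15, and 6.02 and 5.66 on day 20. Days 4 and 15 lay below both day 0 arrays and day 7 above both, and the duplicates of days 10 and 20 fell on either side of the day 0 values or between them.

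Beyond calls, the placing of whole groups was counted on the duplicated days. On day 10, both arrays were above both day 0 arrays for Tet1 alone and below them for Dnmt3b alone, where 21.3% and 38.3% of all probe sets were so placed. On day 20, both arrays were above for Dnmt1 and Dnmt3l and below for Dnmt3a and Dnmt3b, where 18.9% and 35.3% of all probe sets were so placed. With 8 genes, these counts were not far from the shares of the whole array.

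Genes around the enzymes were taken from 5 lists that held 72 genes, of which 64 were measured. On each of days 4, 7 and 10, 1 of the 64 was higher and 1 lower, on day 15 none was higher and 1 lower, and on day 20, 2 were higher and 6 lower. Over all probe sets, 0.929% were called in either direction on day 4, 1.67% on day 7 and 2.80% on day 15, while 2.87% were higher and 1.33% lower on day 10, and 4.52% higher and 3.10% lower on day 20. Without the kidney array, 1 of the 64 was higher and 2 lower on day 7, 3 were higher and 1 lower on day 10, and 1 was higher and 2 lower on day 15, with no change in the counts of day 4. The median change on day 20 was −0.52 over 17 cofactors and recruiters of methylation, −0.31 over 12 cofactors and regulators of TET, −0.24 over 8 readers of methyl-CpG, −0.53 over 14 genes of base excision and deamination, and 0.18 over 13 genes of the methyl donor cycle, against −0.11 over all probe sets. Without the kidney array these day 20 medians were −0.19 for the cofactors of methylation, −0.18 for those of TET, −0.078 for the readers, −0.42 for base excision and deamination, and −0.31 for the methyl donor cycle, whose sign thus turned.

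Among the cofactors, Hells, a chromatin remodeller that methylation of repeats depends on, read 9.12 and 9.92 on day 20, against 10.85 and 11.37 on day 0, and fell by 1.59 (limma adjusted p = 0.0377). Cdca7, which works with HELLS, read 8.96 and 9.55 on day 20, against 10.42 and 10.52 on day 0, and fell by 1.22 (limma adjusted p = 0.0324). Neither was called without the kidney array, at −1.19 and −0.92 (limma adjusted p = 0.0697 and 0.0407, the fold of Cdca7 being under 2). Hdac1, a deacetylase found with TET1 in SIN3A complexes, fell by 1.06 on day 20 (limma adjusted p = 0.0297) and gave −0.84 without that array, which is not a call.

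The reader Zbtb38, a zinc finger protein that binds methylated CpG, rose by 1.30 on day 20 (limma adjusted p = 0.0496), and gave 0.96 without the kidney array, which is not a call. Gadd45g, a stress-response gene, fell by 1.16 on day 20 (limma adjusted p = 0.0199) and by 1.23 without that array (limma adjusted p = 0.0423). Apobec3, a cytidine deaminase that restricts viruses, fell by 1.09 on day 20 (limma adjusted p = 0.0492), and gave −0.79 without it, which is not a call. Without the kidney array, 3 of the 64 were higher on day 20, Apobec1, Cxxc4 and Mat1a, and 3 lower, Gadd45g, Bhmt and Ehmt2, of which Cxxc4, Mat1a and Ehmt2 were named after their values were seen. Of the 6 genes called on day 20 alone with both arrays, only Gadd45g was called without it.

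A pair of list genes were called on 4 or more days. Apobec1, an RNA-editing cytidine deaminase, read 7.24 and 6.73 on day 0, 10.16 on day 4, 9.40 on day 7, 8.59 and 8.66 on day 10, 8.13 on day 15, and 9.50 and 9.28 on day 20, and rose on days 4, 7, 10 and 20 (3.18, 2.41, 1.64 and 2.41, limma adjusted p = 0.0166, 0.0205, 0.0185 and 0.00458). The median of 10 macrophage markers ran along these arrays, at 7.14 and 7.57 on day 0, 10.25 on day 4, 9.77 on day 7, 9.01 and 9.26 on day 10, 8.66 on day 15, and 9.77 and 9.51 on day 20. Of these markers, 9 of 10 were higher on day 20 and none lower (6 of 10 without the kidney array), and their summed linear intensity lay between 9447 and 33041 in grafts, against 1657 and 2570 on day 0. Their part in the level of Apobec1 was not tested. Bhmt, which makes methionine out of homocysteine and betaine, read 7.79 and 7.69 on day 0, 5.48 on day 4, 5.53 on day 7, 5.36 and 4.77 on day 10, 4.73 on day 15, and 5.20 and 5.25 on day 20. Bhmt fell on all 5 days, with changes between −2.22 on day 7 and −3.02 on day 15 (limma adjusted p between 0.00466 and 0.0372). On day 15 and in day 10 replicate 2 it lay under 4.82, and with values raised to 4.82 its changes ran between −2.22 on day 7 and −2.93 on day 15, called on days 10 and 20 alone (limma adjusted p = 0.0426 and 0.0348).

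A further list held germline genes that DNA methylation is known to silence outside germ cells. Of 15 measured, only Taf7l, a germ cell paralogue of a TFIID subunit, passed. It read 7.77 and 8.70 on day 0, 6.62 on day 4, 5.82 on day 7, 4.91 and 4.50 on day 10, 4.39 on day 15, and 4.43 and 4.34 on day 20. Taf7l fell on days 10, 15 and 20, with changes of −3.53, −3.84 and −3.85 (limma adjusted p = 0.00767, 0.0149 and 0.00419). The graft values under 4.82 lie among the lowest 25% of all values, so the sizes are imprecise. With such values raised to 4.82, the changes were −3.37, −3.42 and −3.42, and that of day 20 alone was called (limma adjusted p = 0.0611, 0.0910 and 0.0459). The others had no call. The day 0 arrays differed in these genes, with list medians of 6.09 and 8.49, and Ddx4, a germ cell helicase, at 7.37 and 9.61, so small changes in this list are not resolved. These are genes of germ cells, whose part was not tested.

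**Figure D4:**
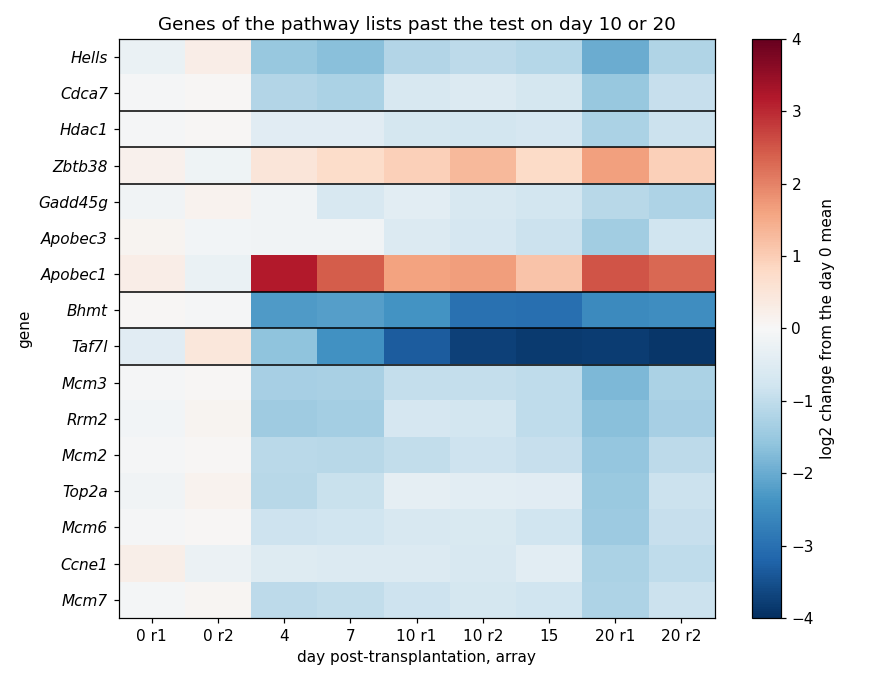
log2 change of each array from the mean of the day 0 arrays (colour, blue lower and red higher) for genes of the pathway, silenced-gene and replication lists that passed the test on day 10 or day 20, grouped by list between black lines. Bhmt and Taf7l are blue on all 7 graft arrays, Apobec1 is red on all 7, and the genes called on day 20 alone, other than Gadd45g, are paler on day 20 r2 than on day 20 r1.

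With all 9 arrays, replication genes passed on day 20 alone, when 7 of 20 were lower and none higher, where 3.10% of all probe sets were lower. Without the kidney array, 3 of 20 were lower on day 4, 4 on day 7, 0 on day 10, 2 on day 15 and 3 on day 20. The share of all probe sets called without that array is not given here, so the counts without it are not read against the whole array. On day 20 with all 9 arrays, Mcm3, a subunit of the replicative helicase, fell by 1.53, and Mcm2, another helicase subunit, had −1.29 (limma adjusted p = 0.0160 and 0.0227). Rrm2, a subunit of ribonucleotide reductase, read 9.77 and 10.09 on day 20, against 11.33 and 11.53 on day 0, and fell (limma adjusted p = 0.0100). On day 20, these 3 alone were called without the kidney array, at −1.25 for Mcm3, −1.34 for Rrm2 and −1.04 for Mcm2. Top2a, a topoisomerase, fell by 1.19 (limma adjusted p = 0.0417), and gave −0.87 without the kidney array, which is not a call.

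The genes whose pattern over the 9 arrays was most like a member's were found by Pearson's r among 11307 candidates brighter than the median, 11308 for Tet3, with the arrays of one RNA pool each as points and their shared time course in common. For Dnmt1 they were Tacc3, a spindle protein (r 0.985), Rspo2, a WNT agonist made by oocytes (0.981), and Arhgef39 (0.979). For Uhrf1 they were Wdr76 (0.973), Mybl2, a transcription factor of the cell cycle (0.969), and Ect2, a cytokinesis factor (0.962). For Dnmt3a they were Rab15 (0.987), Prdm11 (0.972) and Gask1b (0.971), and r of Prdm11 was 0.779 without the array with kidney transcripts.

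For Tet1 they were B4galt4 (0.986), Rab23 (0.975) and Dstyk (0.965). For Tet2 they were Phip (0.983), Slc36a4 (0.980) and Dcaf10 (0.968). For Tet3 they were Zc3h18 (0.934), N4bp1 (0.906) and Wipi2 (0.875). With the highest of so many values taken each time, such r values are a description, and Spearman's rho for these genes lay between 0.733 (Dcaf10) and 0.983 (Rab23).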

How the data were processed

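Expression was measured on 9 arrays of RNA pools. The authors labelled RNA with 1 of 2 kits, and the kit of each array is not given in these sources. The deposited values are RMA log2 intensities, the version of RMA not being given, and scale, centring and direction were taken from the values (array medians 6.49 to 6.63). Probe sets were named through the platform annotation, 34958 having 1 gene, 932 several and 9211 none. One mean per day was fitted to all 9 arrays and 45101 probe sets with lmFit and eBayes of limma 3.58.1 (R 4.3.3), leaving 3 residual degrees of freedom, with Benjamini-Hochberg adjustment. Days 4, 7 and 15, with 1 array each, were assumed to vary like the others. P-values measure the spread between pools of grafts, which the small number of arrays makes imprecise. The fit was tested on simulated data with known changes added. Of 100 changes of 1.5 on the log2 scale, 22 were called on day 10 and 24 on day 20. Of 100 changes of 3, 85 were called on each of these days. No other probe sets were changed there, while 1892 were called in the data on day 10 and 3433 on day 20. The adjustment depends on how many change, so these rates need not hold for the data. Alternatives were the variance prior, array weights, scaling, floor, filter, fold, probe set, arrays and replicate block; comparisons of day 20 with days 4 and 7, list counts without the kidney array, and a floor for Taf7l and Bhmt, were added after the data were seen. For the list counts without the kidney array, the share of all probe sets called in that fit is not given here. The genes and lists were chosen with earlier results of these data known. From each pathway, silenced-gene and replication list, genes called on day 10 or 20 against day 0 are named, up to 4 by size, and the sole gene called elsewhere; marker genes of cell types are examples chosen with their values seen. Lists of lymphocyte, erythroid and gonadal soma markers were run too: 4 of 7 lymphocyte markers were higher and 5 of 7 erythroid markers lower on day 20, and 4 of 8 gonadal soma markers lower.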

Additional observations from a re-analysis of the deposited data

Results flagged for a closer look

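In 4 genes, the arrays of some graft days lay above both day 0 arrays and those of other graft days below both. Placings above or below on a single day were common on the whole array. The share of all probe sets placed in opposite directions on different days was not counted, so the 4 genes are not read against it. On day 4, 28.9% of all probe sets lay above both day 0 arrays and 42.7% below both. The shares were 28.9% and 47.2% on day 7, 29.8% and 47.4% on day 15, and 18.9% and 35.3% on day 20. For Dnmt1, the change from day 0 was 1.25 on day 15 and −0.97 on day 4, a difference of 2.22, and for Uhrf1 it was 0.28 on day 15 and −1.61 on day 4, a difference of 1.89. For Dnmt3a, it was 0.08 on day 4 and −0.66 on day 20, a difference of 0.74, and for Tet3 it was 0.20 on day 7 and −0.28 on day 15, a difference of 0.48. Dnmt3a read 11.22 on day 4, barely above the 11.20 of the higher day 0 array. These differences between days were not tested, and days 4, 7 and 15 have 1 array each. The nearest comparison that was tested, day 20 against days 4 and 7, gave 2.06 for Dnmt1 (limma adjusted p = 0.119) and 1.32 for Uhrf1 (limma adjusted p = 0.162).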

How the results depend on the processing

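Of 1192 values of single genes under other settings, 1131 kept their direction and side of the threshold. Another 25 newly passed, 14 no longer passed and 22 turned in sign. As kept were counted 47 sign changes within 1 SE of 0 and called in neither fit. Settings that changed only the fold or adjusted p threshold reused the main fit, so their values could not turn in sign. With 9 arrays, 3 of them single, small changes were not resolved. The number of the 8 genes called on day 10 was 0 with low values raised to the 25th percentile and 0 with the replicate block. On day 15 it was 1 with array weights, 1 with a second quantile normalization, 1 with bright probe sets only and 2 at an adjusted p under 0.3. On day 20 it was 0 with low values raised, 0 with only the arrays compared, 2 with gene means and 3 at an adjusted p under 0.3. At that threshold it was 2 on day 4, 2 on day 7 and 3 for day 20 against days 4 and 7, and array weights gave 1 on day 7. Leaving out single arrays gave between 0 and 1 calls on days 4, 7, 10 and 15 and for day 20 against days 4 and 7, and between 0 and 2 on day 20. The share of all probe sets called under each of these settings is not given here, so these counts are not read against the whole array. The causes were not tested. Replicate numbers did not pair the arrays (r of the replicate differences between days −0.158, 0.154 and −0.128), and with the replicate block Dnmt3b on day 10 had a limma adjusted p of 0.0788.

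Turned signs were mostly in Dnmt3a and Tet1. For Dnmt3a, the probe set 1423064_at gave −0.59 on day 4, −1.21 on day 10, 0.23 for day 20 against day 10 and 0.037 for day 20 against days 4 and 7, 1423066_at gave 0.98 on day 7 and 0.19 on day 20, and 1423065_at gave 1.24 on day 7 and 0.10 on day 20. For Tet1, day 15 gave −0.40 with 1429448_s_at, −0.092 with 1419896_at, −0.10 with 1419897_at and −0.040 with the gene mean. The probe set 1419897_at gave −0.046 on day 10 and 0.23 for day 20 against day 10, and 1429448_s_at gave −0.067 for day 10 against days 4 and 7. With single arrays left out, Tet1 lay between −0.35 and 0.55 on day 20 and between −0.36 and 0.54 for day 20 against days 4 and 7, Tet2 between −0.61 and 0.027 for day 20 against days 4 and 7, and, for day 20 against day 10, Dnmt1 between −0.047 and 1.05, Tet3 between −0.60 and 0.0050 and Uhrf1 between −0.42 and 0.31. Uhrf1 on day 10 lay between −0.41 and 0.31.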
